A study of Mus musculus with 8 samples.

Results

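The genes described here are 37 mouse genes of the cell cycle: the cyclins, the kinases they activate, their inhibitors, and genes of chromosome segregation and cell division. They were listed by symbol, with earlier results of these data known, and every probe set annotated to 1 of these symbols alone was taken. On the array 36 of the 37 had such a probe set, 84 probe sets in all, of 18193 genes and 34945 probe sets with 1 symbol. Ccnb1 had none under a single symbol and is not analysed further on the array. Of the 36 genes, 13 act at the passage from G1 into S phase (G1/S genes) and 23 in S phase, G2 or mitosis (called mitotic genes here).

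The samples were gallbladders of 12-week-old female B6.V-Lep ob mice, which carry the obese mutation of the leptin gene and make no functional leptin, in both groups. The leptin group of 12 mice was injected with recombinant mouse leptin into the peritoneum every day at 5 µg per g of body weight for 4 weeks, and the saline group of 12 mice with saline for the same time. Gallbladders were removed after an overnight fast, and RNA was extracted from pools of 3, so that each group has 4 pools (leptin pools 5 to 8, saline pools 1 to 4), each on 1 Affymetrix Mouse Genome 430 2.0 array. An array therefore reports the average of 3 animals, and the p-values below measure the spread between pools.

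Cells enter the cycle when D cyclins bind and activate CDK4 and CDK6, which phosphorylate the retinoblastoma protein and so release E2F transcription factors. E2F then drives cyclin E and the genes of DNA replication, cyclin E with CDK2 starts S phase, and proteins of the CIP/KIP family such as p27 (Cdkn1b) restrain that kinase. Most mitotic genes are transcribed only later, in S phase and G2, so in a whole organ their RNA comes from the few cells that are dividing. The adult gallbladder epithelium renews slowly, and D cyclins, CDK4, CDK6 and p27 are also present in resting cells.

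The comparison asks which of these genes differ in the gallbladder of leptin-deficient mice after leptin. Among the G1/S genes, cyclin D1 and Cdk6 were lower and the inhibitor p27 was higher with leptin, each by between 1.63-fold and 1.85-fold. No mitotic gene was called, and most of their signals lay close to the background of the array. Of the 13 G1/S genes 11 were bright enough to be tested and 3 passed, 1 higher and 2 lower with leptin (limma, Benjamini-Hochberg adjusted p under 0.05). Of all 11719 tested genes 8.27% passed, 4.29% higher and 3.98% lower. Of the 23 mitotic genes 7 were tested and 0 passed, and 0 had an unadjusted limma p under 0.05, against 25.5% of all tested genes. Without the filter on brightness, which lets every gene in, 3 G1/S genes and 0 mitotic genes passed, and 1 mitotic gene (Aurkb) had an unadjusted p under 0.05. These counts use the brightest probe set of each gene. Other probe sets of Ccna2, Tpx2, Prc1 and Racgap1 had unadjusted limma p of 0.0279, 0.0416, 0.0472 and 0.0493 without the filter. All were higher with leptin and none passed, and that of Racgap1 was below background in every pool. Signals are MAS 5.0 values on a linear scale. Log2 fold changes are leptin minus saline of log2(signal + 8.2), with their standard error (SE), and understate the change of dim genes. A gene is read from its brightest probe set unless another is named, and n = 4 pools a group throughout.

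Ccnd1 encodes cyclin D1, the D cyclin whose level follows growth signals most closely in many epithelia. Its signal was 2552, 1940, 2566 and 2165 in leptin pools 5 to 8, against 3609, 3445, 3645 and 4317 in saline pools 1 to 4. Every leptin pool lay below every saline pool. The means were 2306 ± 306 with leptin and 3754 ± 385 with saline (SD, n = 4), a log2 fold change of -0.71 ± 0.12 (limma adjusted p = 0.00368), or 1.63-fold lower with leptin. In bulk RNA, fewer cells of a type and less RNA per cell cannot be told apart, here and for the genes below. A second Ccnd1 probe set also fell, with a log2 fold change of -0.70 ± 0.17 (limma adjusted p = 0.0295), although leptin pool 7, at 2927, lay above saline pool 3, at 2744. This second call was lost without the filter on brightness (limma adjusted p = 0.0545). The third had a log2 fold change of -0.54 ± 0.25 and did not pass (limma adjusted p = 0.215).

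The other D cyclins gave no such difference. Ccnd2, which is prominent in lymphocytes and endocrine cells, was at 623 ± 34.5 with leptin and 661 ± 60.9 with saline (SD), a log2 fold change of -0.08 ± 0.12 (limma adjusted p = 0.716). Of its 7 probe sets, 5 were tested and 0 passed. Ccnd3, the D cyclin most widely present in differentiated tissue, was at 570 ± 55.7 with leptin and 555 ± 65.5 with saline, a log2 fold change of 0.04 ± 0.13 (limma adjusted p = 0.885). The leptin and saline pools of both genes overlapped.

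Of the 2 kinases that D cyclins activate, Cdk6 was lower and Cdk4 was not called. Cdk6 had signals of 316, 404, 261 and 337 in leptin pools 5 to 8, against 576, 463, 594 and 544 in saline pools 1 to 4. The groups did not overlap. Its log2 fold change was -0.72 ± 0.15 (limma adjusted p = 0.0148), or 1.65-fold lower with leptin. Another tested Cdk6 probe set read 292, 335, 364 and 404 with leptin, against 512, 455, 398 and 361 with saline, and overlapped. Its log2 fold change was -0.30 ± 0.15 (limma adjusted p = 0.265). The remaining Cdk6 probe set, above background in 1 of 8 pools, averaged 38.9 with leptin and 33.0 with saline, so the call rests on the brightest probe set. Cdk4 was at 445 ± 73.5 with leptin and 388 ± 125 with saline, a log2 fold change of 0.24 ± 0.22 (limma adjusted p = 0.549), and its other probe sets, at -0.09 and -0.25 on the same scale, pointed the other way and did not pass either.

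Cdkn1b encodes p27, which binds and inhibits the CDK2 complexes and is kept high in resting cells. Its signal was 608, 847, 1059 and 788 in leptin pools 5 to 8, against 408, 439, 546 and 364 in saline pools 1 to 4. All leptin pools lay above all saline pools. The means were 826 ± 186 with leptin and 439 ± 77.6 with saline, a log2 fold change of 0.89 ± 0.17 (limma adjusted p = 0.00995), or 1.85-fold higher with leptin. A second, dim probe set of the same gene averaged 27.9 with leptin and 30.1 with saline, a log2 fold change of -0.04. Only saline pool 3, at 59.7, lay above the background level of 46.0 there. That probe set could show little, so the call rests on the brightest probe set. The background level is the 95th percentile of 27 control probe sets for bacterial sequences. Cdk2, the kinase that p27 restrains, read 279, 330, 206 and 326 with leptin, against 365, 403, 395 and 452 with saline. Its groups did not overlap either, but its log2 fold change of -0.51 ± 0.17 did not pass (limma adjusted p = 0.0853). In all, 4 of the 18 tested members (Ccnd1, Cdk6, Cdk2 and Cdkn1b) had groups that did not overlap, and 17.0% of all tested genes did.

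The other G1/S genes did not pass. Cdkn2c, whose product p18 inhibits CDK4 and CDK6, was at 419 ± 93.6 with leptin and 330 ± 52.8 with saline, a log2 fold change of 0.33 ± 0.18 (limma adjusted p = 0.291). Rb1, the retinoblastoma protein itself, was at -0.10 ± 0.16 on the same log2 scale and E2f1, the factor it holds back, at -0.03 ± 0.42. E2f1 had 33.0, 124, 189 and 162 with leptin, against 93.9, 89.6, 101 and 174 with saline, so leptin pool 5 alone was below background. Cyclin E1 (Ccne1), the partner of CDK2, was at 99.1 ± 28.1 with leptin and 126 ± 37.9 with saline, a log2 fold change of -0.31 ± 0.27 (limma adjusted p = 0.525). Cyclin E2 (Ccne2) and thymidylate synthase (Tyms), an S phase enzyme that makes the thymidine nucleotide, were too dim to be tested. Ccne2 ranged between 41.6 and 85.5 with leptin and between 30.6 and 60.8 with saline, and Tyms between 9.50 and 48.4 with leptin and between 22.5 and 49.7 with saline. Tyms has a near-identical pseudogene copy, which a further probe set that names both genes was left out for. Over all 13 G1/S genes, tested or not, the median log2 fold change was -0.08, with 5 positive and 8 negative, and over all 18193 genes it was 0.07. Of 36 G1/S probe sets 21 were tested and 4 passed, 2 of them for Ccnd1, while 6.93% of all tested probe sets passed.

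**Figure D1:**
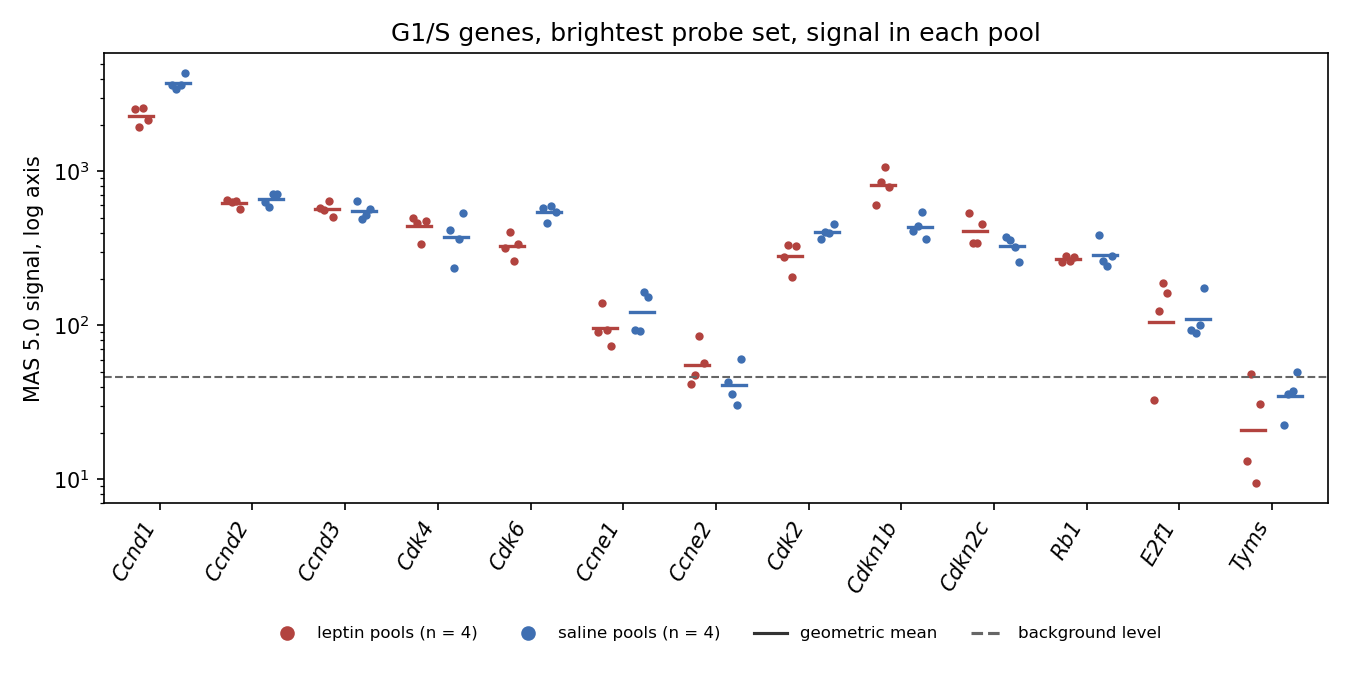
MAS 5.0 signal (log axis) of the 13 G1/S genes in the 4 leptin pools (red, left) and the 4 saline pools (blue, right), with the geometric mean of each group as a bar and the background level of 46.0 as a dashed line. The pools separate for Ccnd1, Cdk6 and Cdk2, lower with leptin, and for Cdkn1b, higher with leptin; the other 9 genes overlap.

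All 3 G1/S calls were kept when any 1 pool was left out, with adjusted p up to 0.0160 for Ccnd1, 0.0427 for Cdk6 and 0.0349 for Cdkn1b. The actin 3' to 5' signal ratio, a sign of RNA quality, was between 1.67 and 2.17 in leptin pools and between 1.5 and 1.68 in saline pools. These ranges barely overlap, so a fit with this ratio cannot tell RNA quality from treatment, here and for the genes below. With it as a covariate in the limma fit the log2 fold changes of the brightest probe sets were -0.70, -0.79 and 1.17, and Ccnd1 (adjusted p = 0.0517) and Cdk6 (0.0942) lost their calls, while Cdkn1b kept its call (0.0248). The other Ccnd1 probe sets moved more, to -0.23 (limma adjusted p = 0.558) for the second and 0.26 (0.603) for the third, and the second Cdk6 probe set to -0.10 (0.856). Averaging all probe sets of a gene, dim ones included, ended the calls of Cdk6 (-0.33, limma adjusted p = 0.281) and Cdkn1b (0.42, limma adjusted p = 0.388).

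Signals of the mitotic genes were low in both groups. In single pools, 15 to 18 of the 23 mitotic genes lay above background with leptin and 13 to 18 with saline, and only 6 did so in all 8 pools, while 63.7% of all genes on the array did. Of the G1/S genes 10 of 13 lay above it in all 8 pools. The median signal was 65.5 for the mitotic genes and 374 for the G1/S genes, against 168 for all genes.

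The kinase that drives entry into mitosis, Cdk1, read 138, 177, 89.2 and 106 in leptin pools 5 to 8, against 119, 120, 83.1 and 187 in saline pools 1 to 4. The groups overlapped fully, and the log2 fold change was 0.01 ± 0.27 (limma adjusted p = 0.984). Its partner cyclin B2 (Ccnb2) was above background only in leptin pool 8 (90.1) and saline pool 4 (132). Cyclin A2 (Ccna2), which works from S phase to early mitosis, read 175, 21.5, 221 and 176 with leptin, against 109, 104, 77.4 and 121 with saline. Leptin pool 6 lay far below the other 3 leptin pools, and the log2 fold change was 0.16 ± 0.52 (limma adjusted p = 0.882). Without leptin pool 6 the log2 fold change was 0.85 and did not pass (limma adjusted p = 0.0558). A second Ccna2 probe set read 130, 152, 133 and 121 with leptin, against 57.8, 102, 104 and 76.4 with saline. There leptin pool 6 was the highest and the groups did not overlap. The log2 fold change of 0.64 ± 0.24 did not pass either (limma unadjusted p = 0.0189, adjusted p = 0.128).

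Common markers of dividing cells were not called either. Top2a, which untangles chromosomes before they separate, read 72.5, 104, 122 and 94.8 with leptin, against 95.3, 119, 74.8 and 153 with saline, a log2 fold change of -0.14 ± 0.27 (limma adjusted p = 0.80). Mki67, the gene of the Ki-67 antigen on mitotic chromosomes, read 57.8, 62.1, 88.0 and 42.1 with leptin, against 27.7, 47.0, 94.3 and 96.0 with saline. It was too dim for the filtered fit, and its log2 fold change was 0.02 ± 0.42 without the filter. Anln, the contractile ring protein anillin, was at 174 ± 23.8 with leptin and 180 ± 21.9 with saline, a log2 fold change of -0.05 ± 0.17 (limma adjusted p = 0.899).

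Genes of the spindle were similar. Tpx2, which activates Aurora A on the spindle, was at 296 ± 92.7 with leptin and 240 ± 26.2 with saline, a log2 fold change of 0.25 ± 0.20 (limma adjusted p = 0.484). This value comes from the brightest of its 4 probe sets, while another averaged 56.7 with leptin and 53.8 with saline, so the probe sets of Tpx2 disagree in brightness. Prc1, which bundles microtubules between the separating chromosomes, was at -0.26 ± 0.29 (limma adjusted p = 0.634). A second Prc1 probe set, above background in 2 of 8 pools, pointed the other way. It was at 1.22 ± 0.55 without the filter and did not pass (limma unadjusted p = 0.0472, adjusted p = 0.301). The motor genes were too dim to be tested. Kif11, which pushes spindle poles apart, ranged between 12.8 and 91.4 with leptin and between 35.1 and 81.6 with saline. Kif20a, a motor of late mitosis, ranged between 15.2 and 62.8 with leptin and between 3.40 and 54.7 with saline. Kif23, whose product works with that of Racgap1 at the midzone before a cell divides, ranged between 40.9 and 128 with leptin and between 37.8 and 214 with saline. Racgap1 itself ranged between 55.2 and 126 with leptin and between 15.4 and 138 with saline. In each of these motor and midzone genes the groups overlapped. Nusap1, a spindle microtubule protein, ranged between 42.6 and 89.2 with leptin and between 30.3 and 94.3 with saline.

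Of the mitotic kinases and their partners, Aurora B gave the lowest p. Aurkb, the kinase that corrects faulty chromosome attachments, read 71.8, 52.0, 148 and 60.2 in leptin pools, against 31.9, 21.9, 16.4 and 40.7 in saline pools. All 4 saline pools were below background and all 4 leptin pools above it. On this probe set the geometric mean of the leptin pools was 1.65-fold the background level. Over all probe sets but controls, 68.4% to 71% lay above background in leptin pools and 63.3% to 66.9% in saline pools. Aurkb was too dim for the filtered fit and did not pass without the filter (limma unadjusted p = 0.00936, adjusted p = 0.142). Its other probe set was below background in all 8 pools, averaging 19.4 with leptin and 21.2 with saline, and could not show a difference. Birc5 (survivin), of the same complex, ranged between 5.80 and 77.7 with leptin and between 15.4 and 60.5 with saline. Aurka, the kinase of the spindle poles, ranged between 45.5 and 86.6 with leptin and between 45.8 and 80.4 with saline. Plk1, which acts throughout mitosis, ranged between 12.3 and 72.7 with leptin and between 33.9 and 70.6 with saline.

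The spindle checkpoint and the ligase it restrains were measured through 4 genes. Bub1, a checkpoint kinase, read 47.0, 102, 16.8 and 67.4 with leptin, against 27.7, 6.50, 25.2 and 32.8 with saline. All saline pools and leptin pool 7 were below background, leptin pool 7 lay below 3 of the saline pools, and the gene did not pass without the filter (limma adjusted p = 0.374). Bub1b, of the same checkpoint, was above background only in leptin pool 6 (69.8) and saline pool 2 (47.1). Cdc20, which activates the ligase that ends mitosis, read 140, 130, 164 and 169 with leptin, against 99.2, 90.4, 87.3 and 280 with saline. Saline pool 4 lay above every other pool and the other 3 saline pools below every leptin pool. Its log2 fold change was 0.28 ± 0.32 (limma adjusted p = 0.639), and 0.66 without saline pool 4 (limma adjusted p = 0.112). Ube2c, the ubiquitin enzyme of that ligase, ranged between 56.1 and 127 with leptin and between 13.2 and 117 with saline. At the centromere, Cenpa, its own histone, ranged between 36.6 and 101 with leptin and between 46.3 and 70.1 with saline, and the motor gene Cenpe was above background only in leptin pool 5 (59.8).

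**Figure D2:**
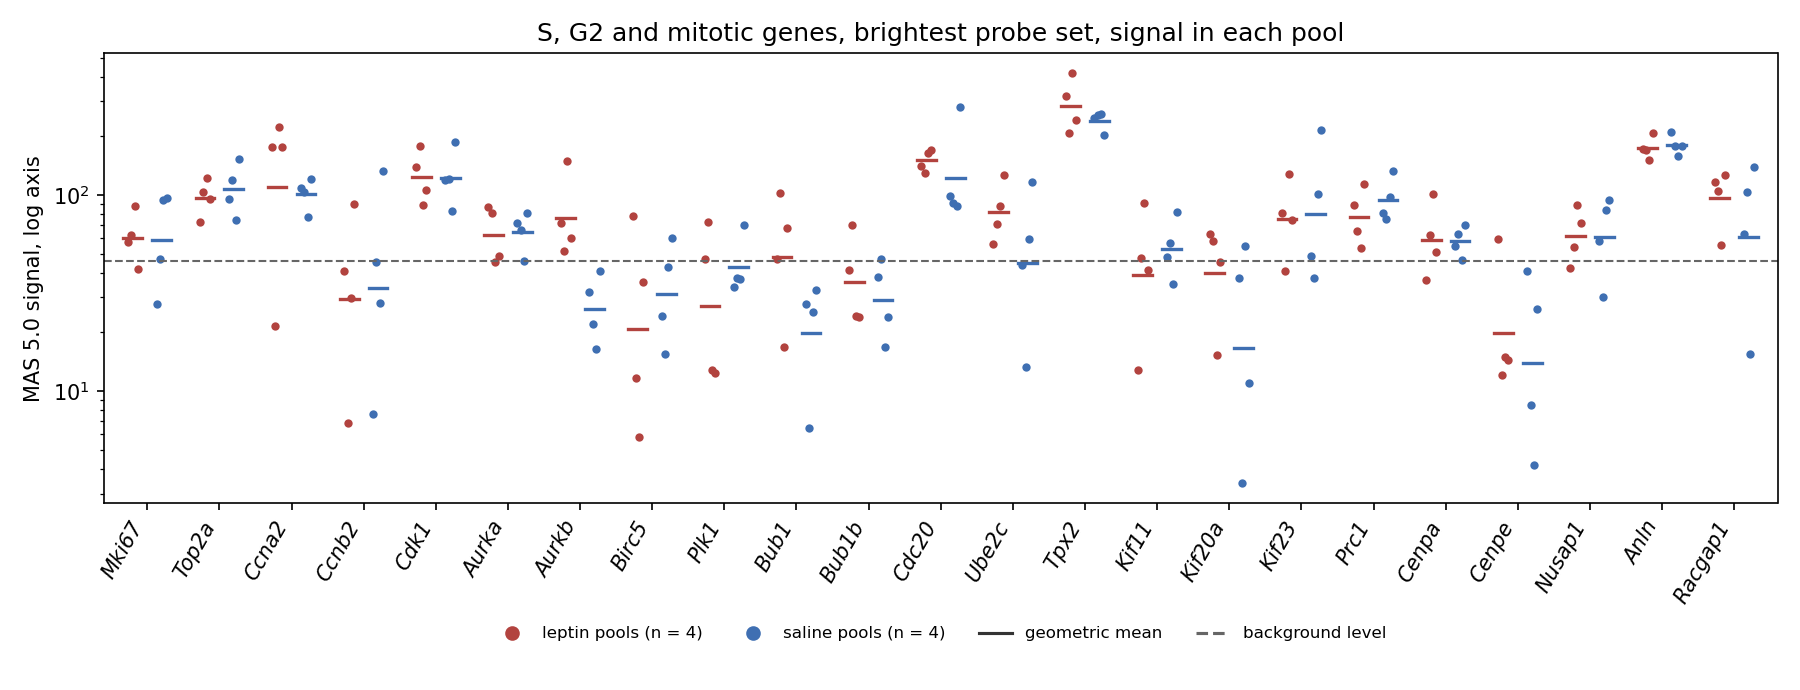
MAS 5.0 signal (log axis) of the 23 mitotic genes in the 4 leptin pools (red, left) and the 4 saline pools (blue, right), with the geometric mean of each group as a bar and the background level of 46.0 as a dashed line. Many genes scatter around the dashed line in both groups, and saline pool 4 (the rightmost blue point) is the highest of the 8 pools for 9 genes.

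Over the 23 mitotic genes, tested or not, the median log2 fold change was 0.02, with 14 positive and 9 negative, and it turned to -0.20, -0.18 and -0.23 with quantile, loess and median scaling of the arrays. With these the median of all genes was -0.01, 0.00 and -0.18, against 0.07 otherwise. Single pools moved this value. For 9 of the 23 genes saline pool 4 was the highest of the 8 pools, while saline pools 2 and 3 were the highest for 0 and the lowest for 5 and 6. Leptin pools 5, 6, 7 and 8 were the highest for 4, 3, 5 and 1 genes. A pool's score on a list, taken as the median deviation of its genes from their 8-pool means in log2 units, was 0.182, 0.0254, -0.178 and 0.182 for mitotic genes in leptin pools 5 to 8, against -0.077, -0.0579, -0.292 and 0.556 in saline pools 1 to 4. Without saline pool 4 the median log2 fold change of the mitotic genes was 0.20, and 0 genes passed there as well. On the G1/S genes saline pool 4 was also the highest, at 0.365. Leptin pools lay between -0.177 and -0.0016 and saline pools 1 to 3 between -0.118 and 0.0396, and the G1/S median was -0.05 without it.

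**Figure D3:**
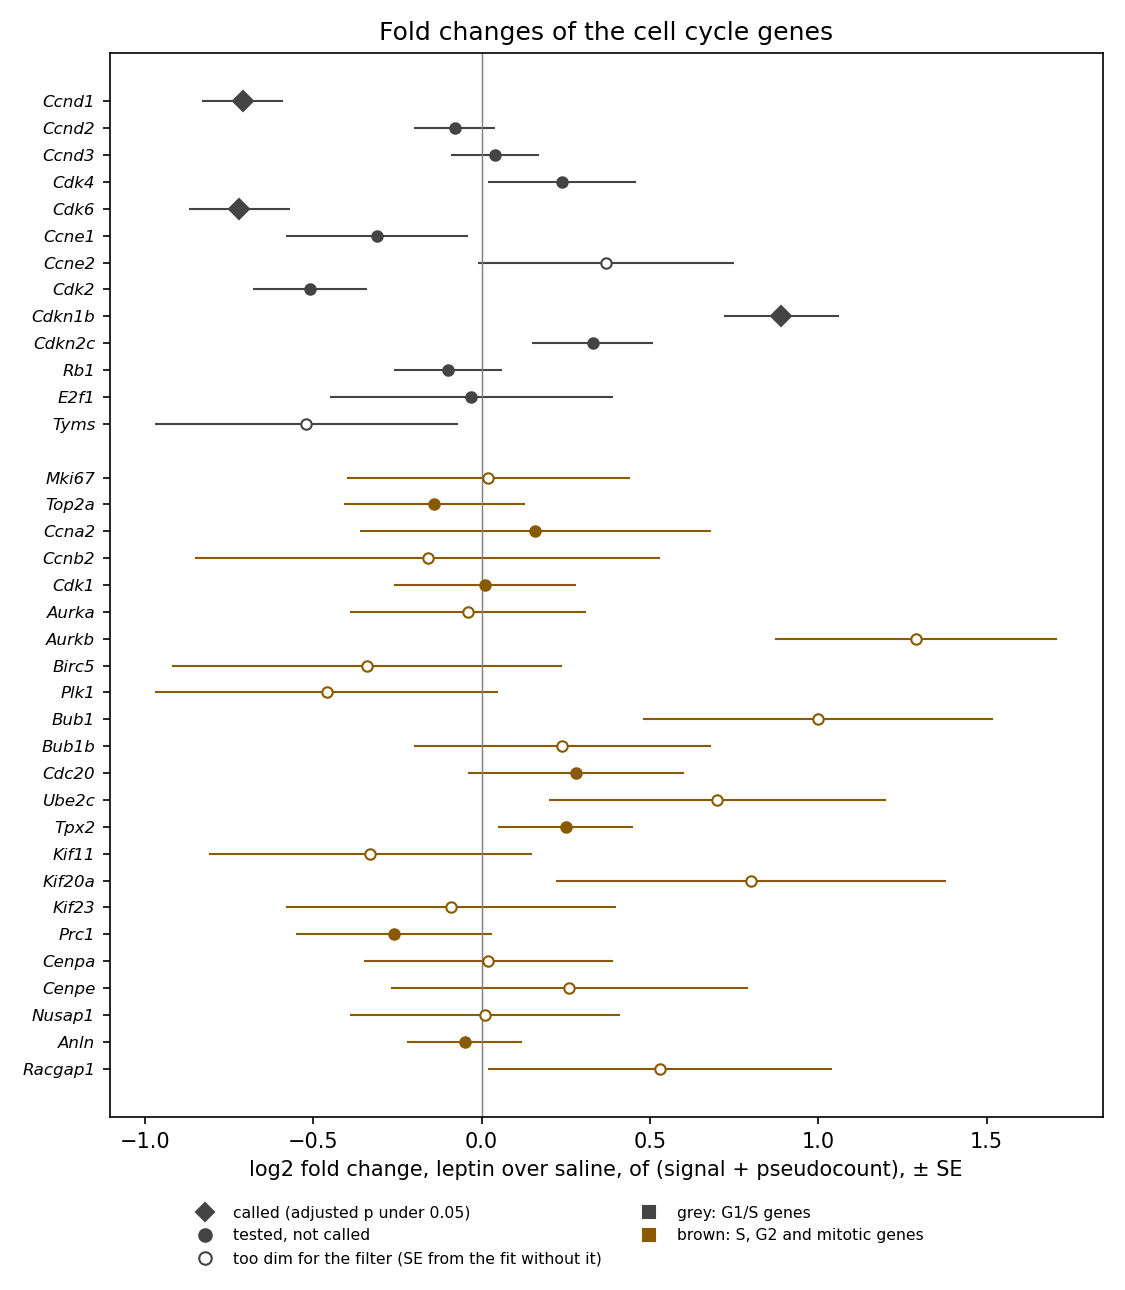
Log2 fold change (leptin over saline, of signal + 8.2) of the 36 genes with its SE; diamonds passed at an adjusted p under 0.05, filled circles were tested and did not pass, and open circles were too dim for the filter, with the SE of the fit without it. Ccnd1 (-0.71), Cdk6 (-0.72) and Cdkn1b (0.89) are the 3 that passed, and the mitotic genes (brown) scatter on both sides of 0 with wide errors.

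Other genes of the pathway were read from 3 further lists. Of 42 genes of DNA replication, which are E2F targets for the most part, 35 were tested, 10 were lower and 1 (Mcm10) higher with leptin (31.4% called, against 8.27% of all tested genes), and the median log2 fold change over the 41 on the array was -0.34. The 4 largest changes were all lower with leptin. Mcm5, a subunit of the replicative helicase, read 113, 98.3, 104 and 85.1 with leptin, against 414, 338, 452 and 907 with saline, a log2 fold change of -2.21 ± 0.25 (limma adjusted p = 2.3e-04). The helicase subunits Mcm2 and Mcm6 were at -1.89 ± 0.28 and -1.42 ± 0.26 (limma adjusted p = 0.00170 and 0.00717). Rrm2, the ribonucleotide reductase subunit that limits the supply of DNA building blocks, was at -1.74 ± 0.15 (limma adjusted p = 2.1e-05). The replication score was -0.203 to -0.132 in leptin pools, against 0.0647, -0.00532, 0.0591 and 0.558 in saline pools 1 to 4, so saline pool 4 stood apart there too. Without it 8 were lower and 1 higher. Without leptin pool 5, 6 or 8 the count was 6, and with the actin covariate it was 2 (limma). In that fit Mcm5 and Rrm2 kept their calls at -2.13 and -1.44 (adjusted p = 0.0119 and 0.00277), Mcm2 and Mcm6 lost theirs at -1.67 and -1.46 (0.0521 and 0.0712), and Mcm10 lost its call at 0.34 (0.509).

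Of 30 further regulators of E2F and of cyclin-dependent kinases, 23 were tested, 4 were lower and 1 higher. That is 21.7% called, against 8.27% of all tested genes. Myc, a growth regulator that induces D cyclins and represses Cdkn1b in other settings, read 195, 159, 112 and 159 with leptin, against 612, 580, 684 and 712 with saline, a log2 fold change of -2.02 ± 0.17 (limma adjusted p = 1.6e-05). Cdkn1a, which encodes p21, the other main inhibitor beside p27, went the opposite way to Cdkn1b, at -1.31 ± 0.23 (limma adjusted p = 0.00456). Wee1, the kinase that holds CDK1 inactive, was at -0.89 ± 0.16 (limma adjusted p = 0.00544), and Tfdp1, the partner of E2F factors, at -0.75 ± 0.18 (limma adjusted p = 0.0226). The 1 higher gene was Rbl2, which encodes p130, the retinoblastoma relative of resting cells, at 0.68 ± 0.17 (limma adjusted p = 0.0337). The calls numbered 3 without leptin pool 6, leptin pool 8 or saline pool 4. With the actin covariate Myc and Wee1 kept their calls, and Cdkn1a (-1.05, limma adjusted p = 0.108), Tfdp1 (-0.53, 0.283) and Rbl2 (0.77, 0.137) lost theirs. Without the filter Rbl2 lost its call (limma adjusted p = 0.0526), and so did Mcm10 (0.0613).

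Of 35 further mitotic genes 18 were tested and 0 passed, against 8.27% of all tested genes. At an unadjusted limma p under 0.05 there were 2, against 25.5% of all tested genes. The median log2 fold change was 0.09 over all 35. Without the filter 0 passed as well, and Ttk, Ndc80 and Sgo1 were below background in every pool. The lowest p was that of Ncapd2, a condensin subunit, which averaged 131 with leptin and 80.5 with saline (0.66 on the log2 scale, limma adjusted p = 0.115).

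**Figure D4:**
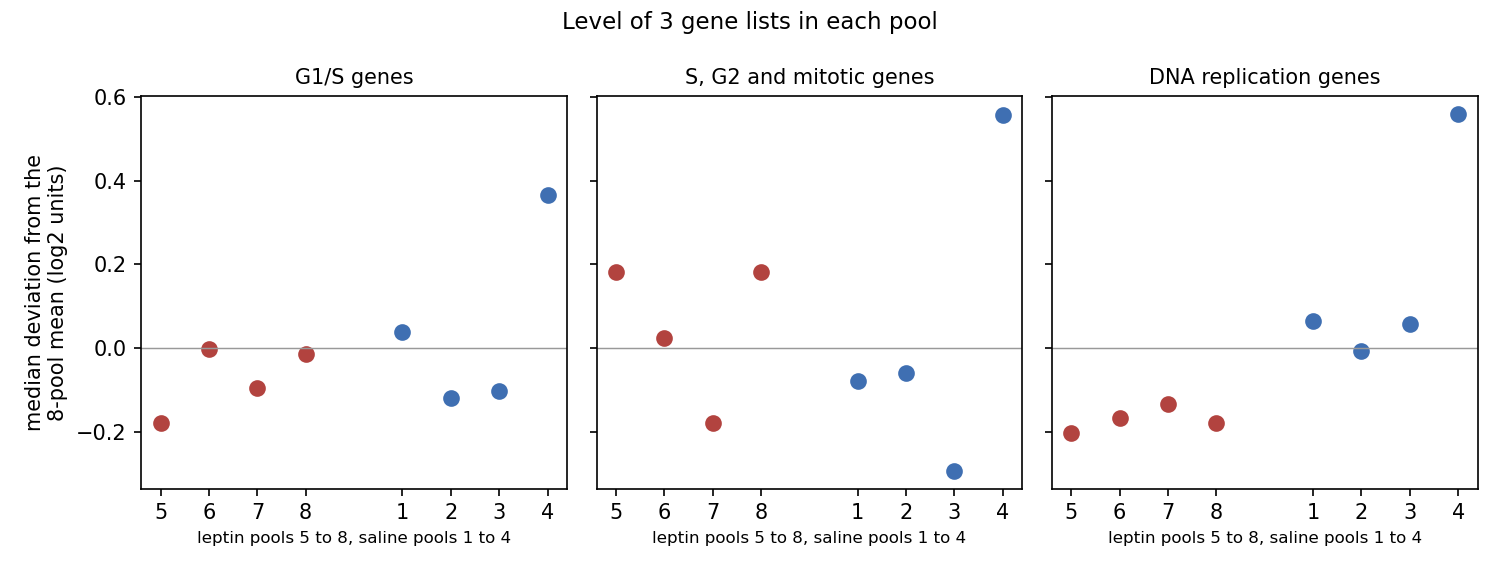
Score of each pool (median deviation of the list's genes from their 8-pool means, in log2 units) for G1/S, mitotic and DNA replication genes, with leptin pools 5 to 8 in red on the left and saline pools 1 to 4 in blue on the right of each panel. Saline pool 4 is the highest pool in all 3 panels, at 0.365, 0.556 and 0.558, and the other 7 pools overlap between groups for G1/S and mitotic genes but not for replication genes.

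The mitotic genes share letters in their promoters that the choice of members did not use. The cell cycle homology region (CHR) is a short element near the start of genes that are repressed in resting cells and transcribed in G2, and it often works with CCAAT boxes, while E2F elements mark genes that switch on at the G1/S passage. Promoters of RefSeq (build GRCm38.p6, 250 bases before to 50 after the gene start) were found for 29 of the 37 members, 20 mitotic (Ccnb1 among them) and 9 G1/S genes. Searched on both strands, TTTGAA or TTTAAA, the letters of the CHR, lay in 18 of 20 mitotic promoters (90.0%) and in 2 of 9 G1/S promoters, against 27.8% of all 27025 promoters. CCAAT lay in 17 of 20 mitotic promoters (85.0%) and 2 of 9 G1/S promoters, against 37.9% of all. The E2F letters TTTCCCGC, TTTGGCGC, TTTCGCGC or TTTGCCGC lay in 1 mitotic (Cdk1) and 1 G1/S promoter (Cdk2), against 2.32% of all. The window listed for E2f1 holds coding sequence of that gene, so the stretch before its coding part was not searched. The CHR letters lay within 50 bases of the start in 16 of 20 mitotic and 2 of 9 G1/S promoters. Of all promoters 8.48% held them there, and this window was set after the positions were seen. These matches are letters and not measured sites.

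No 2 matches of different elements overlapped in these 29 promoters. Of them, 4 promoters are shown to set the called genes Cdkn1b and Cdk6 beside mitotic ones; the third called gene, Ccnd1, is not among the 29. Where a member had 2 promoters, as 3 did, the first listed was used. Letters near any other start of a gene were not counted. The 4 are Cdkn1b (chr6:134920151-134920450, plus strand), Cdk6 (chr5:3343643-3343942, plus strand), Cdk1 (chr10:69352863-69353162, minus strand) and Cdc20 (chr4:118437294-118437593, minus strand). Capitals mark matches to the letters above on either strand, so ATTGG is CCAAT on the other strand.
Cdkn1b: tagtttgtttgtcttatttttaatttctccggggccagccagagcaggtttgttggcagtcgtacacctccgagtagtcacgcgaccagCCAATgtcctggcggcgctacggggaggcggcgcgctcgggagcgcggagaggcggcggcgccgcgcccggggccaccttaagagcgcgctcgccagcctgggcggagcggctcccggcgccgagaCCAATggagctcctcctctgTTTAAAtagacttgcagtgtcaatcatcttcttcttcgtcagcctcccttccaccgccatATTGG
Cdk6: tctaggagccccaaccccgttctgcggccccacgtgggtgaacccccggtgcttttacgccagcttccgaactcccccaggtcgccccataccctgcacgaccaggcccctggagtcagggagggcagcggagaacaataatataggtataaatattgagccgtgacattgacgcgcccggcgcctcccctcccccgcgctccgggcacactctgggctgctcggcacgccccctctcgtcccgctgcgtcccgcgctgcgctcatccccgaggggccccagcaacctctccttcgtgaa
Cdk1: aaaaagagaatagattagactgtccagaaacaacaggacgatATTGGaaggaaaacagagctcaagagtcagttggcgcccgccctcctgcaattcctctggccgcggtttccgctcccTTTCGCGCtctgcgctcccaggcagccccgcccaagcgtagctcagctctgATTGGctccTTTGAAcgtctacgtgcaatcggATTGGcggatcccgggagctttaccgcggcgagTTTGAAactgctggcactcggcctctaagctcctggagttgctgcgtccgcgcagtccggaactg
Cdc20: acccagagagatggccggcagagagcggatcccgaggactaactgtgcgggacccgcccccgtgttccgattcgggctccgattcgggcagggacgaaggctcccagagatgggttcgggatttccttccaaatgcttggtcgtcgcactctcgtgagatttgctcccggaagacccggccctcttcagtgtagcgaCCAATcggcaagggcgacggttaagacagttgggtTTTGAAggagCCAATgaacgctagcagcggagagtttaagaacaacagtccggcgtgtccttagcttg
Cdk6 has none of the letters in this window, and Cdkn1b has 1 CHR match and 3 CCAAT matches. Cdk1 has 2 CHR matches, 3 CCAAT matches and 1 E2F match, and Cdc20 has 1 CHR match between 2 CCAAT matches. Cdkn1b, which passed, and Cdk1 and Cdc20, which did not, all hold CHR letters just before the start. Whether these letters bear on the response to leptin was not tested.

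**Figure D5:**
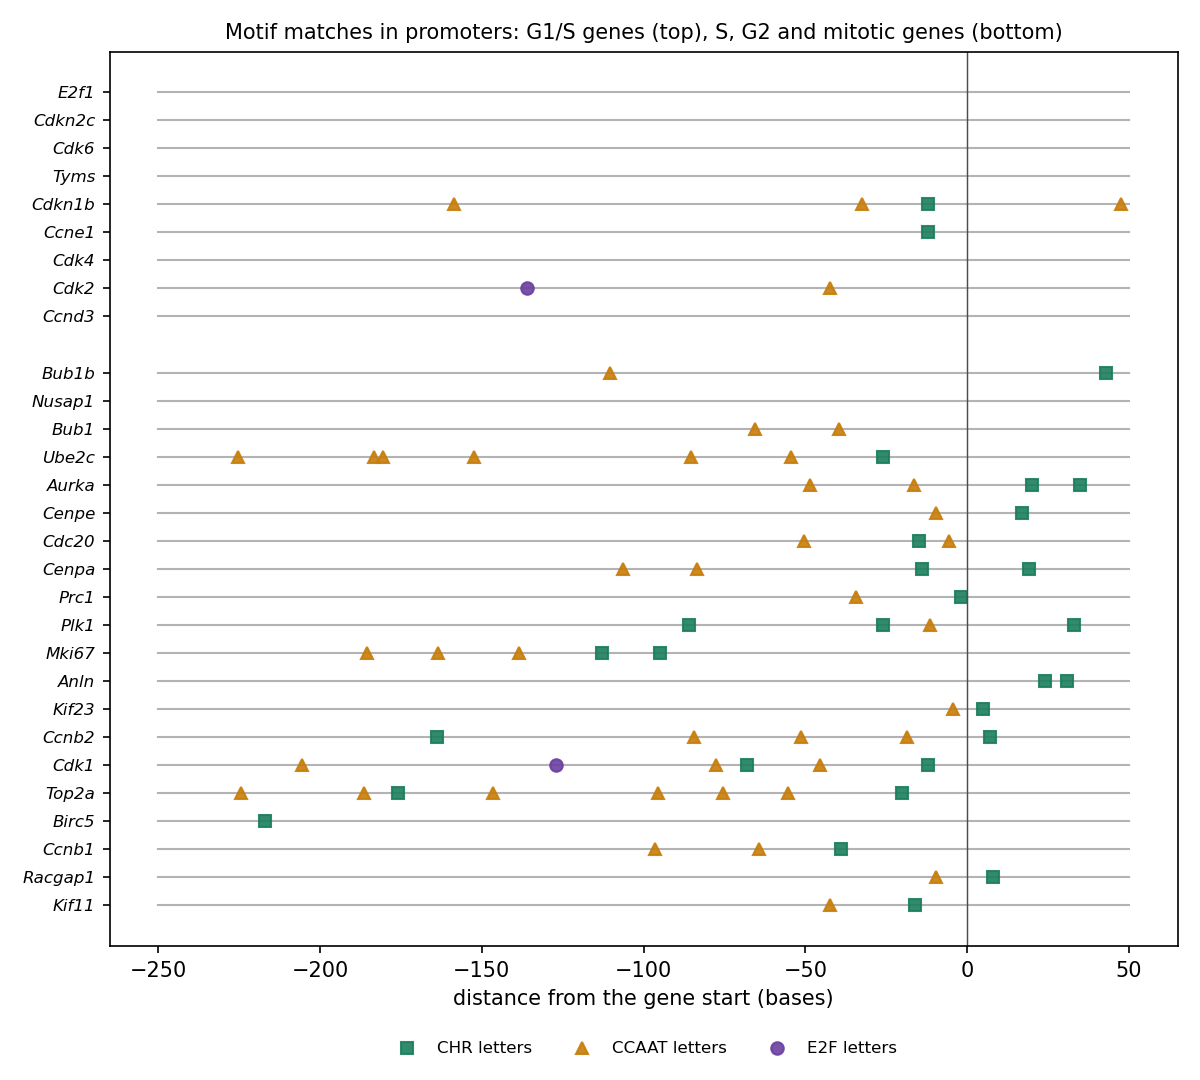
Matches to the CHR (green squares), CCAAT (orange triangles) and E2F letters (purple circles) along the promoters of 9 G1/S genes (top) and 20 mitotic genes (bottom), by distance from the gene start in bases. CHR matches of the mitotic genes gather near the start, within 50 bases of it in 16 of 20, and so do those in 2 of 9 G1/S genes.

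Markers of several cell types also differed with treatment. Over all tested genes, 4.29% were called higher with leptin and 3.98% lower. Whether the makeup of the pools changed, and its part in the results above, was not tested. Of 8 gallbladder epithelium markers all were above background in every pool, and 3 (Krt7, Krt8 and Krt18) were lower with leptin. The other 5 did not pass, at log2 fold changes of -0.40 (Krt19), -0.25 (Cldn4), -0.17 (Cdh1), -0.01 (Epcam) and 0.03 (Muc1). The signal summed over all 8 was 32118 to 36026 with leptin and 38557 to 47828 with saline. All 7 macrophage markers were higher (summed 8506 to 10553 with leptin and 3067 to 4154 with saline). So were 4 of 4 tested B and plasma cell markers (12719 to 20633 with leptin and 378 to 485 with saline). Of the neutrophil markers 3 of 3 tested (S100a8, S100a9 and Ltf) were higher (3388 to 5971 with leptin and 504 to 952 with saline). Cxcr2 and Mpo were too dim to be tested, at 0.29 and 0.36 on the log2 scale. In the T cell list 1 of 5 was bright enough to be tested and did not pass (386 to 637 with leptin and 273 to 380 with saline), and of 6 smooth muscle markers Smtn alone was higher (summed 30305 to 37786 with leptin and 29935 to 39902 with saline). Adipocyte markers summed to 13386 to 15800 with leptin and 12388 to 23025 with saline, with Cidec alone called, lower. Hepatocyte markers were high in both groups of these organs labelled gallbladder, summing to 62533 to 70598 with leptin and 48322 to 71631 with saline, with Apoa1 alone called, higher. Alb, the albumin gene, averaged 18860 ± 454 with leptin and 18440 ± 2966 with saline. The median signal of an array was 94.0 to 107 with leptin and 77.8 to 87.3 with saline, and no batch is named in the labels.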

How the data were processed

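RNA of 8 pools of 3 gallbladders was measured on 8 arrays. The authors deposited intensities on a linear scale, 1 MAS 5.0 signal for each probe set, and the submitters' processing notes name MAS5. The sources used here give neither its version nor scan dates, so batches were not examined. Every array had a 2% trimmed mean of 250. Signals were scaled to that mean and taken to log2(signal + 8.2), 8.2 being the 10th percentile. After removal of 64 control probe sets, the 22519 probe sets at or above the median brightness were tested with limma 3.58.1 in R 4.3.3 (lmFit, eBayes with trend; two-sided; Benjamini-Hochberg over all of them). Of 45101 probe sets, 34945 had 1 symbol, 932 several and 9211 none listed, and 13 controls with a symbol were left out. The number of arrays limits the precision. On simulated data among 22519 probe sets, 200 of them changed, the fit recovered 8.5% of 1.5-fold, 69% of 2-fold and 98.5% of 4-fold changes. It made 1, 12 and 8 false calls there. The simulation averaged over all tested brightness, and more probe sets (1561) were called in the data than were changed in it. Its rates therefore need not hold for these data or for the mitotic genes. All members are named; from each further list the 4 called genes of largest change were named, and Mcm10, Rbl2, Ncapd2 and genes below background were added after their values were seen. The members, lists, tests and motif letters were chosen with earlier results of these data known. Lists are described by counts and medians, without a set test. Alternatives covered scaling, pseudocount, filter, variance model, array weights, the actin ratio, averaging of probe sets and each pool left out. Python 3.11.15 and matplotlib 3.10.9 drew the figures.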

Additional observations from a re-analysis of the deposited data

Results flagged for a closer look

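Within the 4 pools of a group, 1 pool lay apart from the other 3 by Dixon's criterion in 4 of 76 groups examined, where chance gives about 1 in 20. Ccna2 had a signal of 21.5 in leptin pool 6, against 175 to 221 in the other leptin pools, while its second probe set was not low there. Cenpe had 59.8 in leptin pool 5, against 12.0 to 14.9 in the other leptin pools. Cdc20 had 280 in saline pool 4, where saline pools 1 to 3 had 87.3 to 99.2, and a second Cdc20 probe set was likewise highest there, at 231. Plk1 had 70.6 in saline pool 4, where saline pools 1 to 3 had 33.9 to 37.8.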

How the results depend on the processing

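No paired analysis was possible because the leptin and saline pools share no replicate numbers. Leaving out 1 pool at a time gave 884 to 1431 called probe sets (1561 with all pools; 1028, 884, 985, 892 and 943 without leptin pools 5, 6 and 8 and saline pools 2 and 4), 3 to 3 G1/S genes, 6 to 10 replication genes (11 with all) and 3 to 5 other regulators (5 with all). With the actin ratio as a covariate, 654 probe sets (249 higher, 405 lower), 1 G1/S gene, 2 replication genes and 2 other regulators were called. Centring arrays on the median of all their probe sets called 3992 probe sets, 406 higher and 3586 lower, against 798 and 763 otherwise; it put the median of all genes at -0.18 (0.07 otherwise) and that of the G1/S genes at -0.33, and added a call for Cdk2 (-0.76). With probe sets above the 75th percentile 462 were higher and 817 lower, and without the variance trend 691 and 389. Without that trend 5 replication genes and 3 other regulators were called. Averaging the probe sets of a gene left 1 G1/S gene and 5 replication genes called, and it gives no count of probe sets. The alternatives for the replication and regulator lists were added after the data were seen. Mitotic genes had 0 calls under all 20 alternatives. Ccnd1, Cdk6 and Cdkn1b kept their direction in all of them and their calls in 19, 18 and 19. A change of sign was counted only for called values; 22 members without a call changed sign under at least 1 alternative. Signals near background limit the mitotic genes: 16 of 23 were too dim to be tested.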
